A study of Mus musculus with 5 samples.

Results

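A named list of 9 genes for secreted chemokines was followed in group 2 innate lymphoid cells (ILC2s): Ccl1, Ccl3, Ccl4, Ccl5, Ccl17, Ccl22, Cxcl2, Cxcl3 and Xcl1. Each of the 9 had 1 probe set that the platform annotation pairs with that symbol alone, out of 22180 genes named in this way. All 9 passed the filter on dim genes and were tested, Ccl17 only through its knockout values. The cells came from the lungs of naive adult male mice, either wild type (3 arrays) or IL-33 knockout (2 arrays), and every array is labelled a biological replicate. Strain, age in weeks, the knockout allele, the sorting gate and any pooling of animals are not given in the sources used here.

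Chemokines are small secreted proteins that draw leukocytes along a gradient by engaging G protein-coupled receptors, and they are classed by the spacing of their first cysteines into CC, CXC, C and CX3C families. ILC2s, tissue-resident lymphocytes that answer the alarmin IL-33, are known to release several of them on activation, among them ligands for eosinophils, T helper 2 cells and neutrophils. Macrophages, dendritic cells, NK cells, T cells and epithelium are other sources of the same ligands in lung.

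The study asks which transcripts differ between ILC2s of normal mice and of mice that lack IL-33. None of the 9 chemokine genes passed the test between genotypes (limma, Benjamini-Hochberg adjustment over 16635 genes, threshold 0.05), nor did any other gene, a background of 0%. With limma at an unadjusted p below 0.05 there were 0 of the 9 and 1271 genes (7.64%) of all tested. Cxcl2, a neutrophil attractant, was lower in both knockout arrays than in every wild-type array, and Ccl17 and Ccl22, the ligands of CCR4, were higher in both. Over all genes tested, 6.32% were lower and 11.6% higher in this way. Ccl3, a macrophage inflammatory protein, was the highest of the 5 arrays on one knockout array and the lowest on the other.

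Before the values, the promoter windows of the genes whose groups did not overlap (Cxcl2, Ccl17 and Ccl22) are shown, with that of Cxcl3 as the nearest relative and close neighbour of Cxcl2. They are RefSeq sequences of build GRCm38.p6, 200 bases from 250 to 51 before the annotated start, 5′ to 3′ on the gene's strand, and capitals mark matches to GGGNNNNNCC on either strand, the core of sites bound by NF-kB, a transcription factor downstream of the IL-33 receptor.
Cxcl2, chr5:90903649-90903848, strand +: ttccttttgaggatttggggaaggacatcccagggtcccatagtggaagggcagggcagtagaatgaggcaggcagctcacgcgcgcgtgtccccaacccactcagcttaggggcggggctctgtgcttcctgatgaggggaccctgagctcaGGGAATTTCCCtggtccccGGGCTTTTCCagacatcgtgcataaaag
Cxcl3, chr5:90785851-90786050, strand +: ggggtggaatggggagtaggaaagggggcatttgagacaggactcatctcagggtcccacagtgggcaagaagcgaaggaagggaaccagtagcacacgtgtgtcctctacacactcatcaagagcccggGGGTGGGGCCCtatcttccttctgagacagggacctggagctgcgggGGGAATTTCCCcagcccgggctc
Ccl22, chr8:94745434-94745633, strand +: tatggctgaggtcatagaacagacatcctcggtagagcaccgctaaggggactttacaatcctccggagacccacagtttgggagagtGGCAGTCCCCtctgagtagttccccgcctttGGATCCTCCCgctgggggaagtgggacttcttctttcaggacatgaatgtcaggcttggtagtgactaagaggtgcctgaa
Ccl17, chr8:94810203-94810402, strand +: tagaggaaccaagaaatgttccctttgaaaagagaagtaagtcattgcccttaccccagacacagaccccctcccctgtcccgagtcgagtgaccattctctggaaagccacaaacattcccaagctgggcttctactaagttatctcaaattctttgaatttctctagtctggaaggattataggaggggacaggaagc

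The RefSeq promoter table held 7 of the 9 genes, all but Ccl4 and Ccl5. Of those 7, 4 had the NF-kB core in the window: Cxcl2 with 3 matches, Cxcl3 with 4, Ccl22 with 2 and Ccl1 with 2, some of them overlapping matches of opposite strands. The core was in 37.2% of all 32851 promoter windows of that length. The longer form GGGAATTTCC was copied from the first core match in the Cxcl2 window, so its presence there was fixed in advance. It was also in the Cxcl3 window, and in 25 of the 32851 windows (0.0761%). The AP-1 letters TGANTCA were in none of the 7 windows (5.57% of all), and the STAT letters TTCNNNGAA were in 1, that of Ccl17 (5.76% of all). These matches are letters in a window, not measured sites. Aligned end to end, the Cxcl2 and Cxcl3 windows were identical at 53.2% of columns and the Ccl17 and Ccl22 windows at 48.3%. The other pairs of the 7 windows were identical at 39.9% to 48.9%, a range that holds the value of Ccl17 and Ccl22.

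Most of the members also sit in clusters. In the gene order of GRCm38.p6, Ccl3 and Ccl4 are adjacent protein-coding genes on chromosome 11, with Ccl9 and Ccl6 between Ccl5 and Ccl3. Ccl22 and Ccl17 on chromosome 8 have 1 protein-coding gene between them, Cx3cl1, and Cxcl3 and Cxcl2 on chromosome 5 have 2, Cxcl15 and Cxcl1. Ccl1 is farther off, with 25 protein-coding genes between it and Ccl5, and Xcl1 is the only member on chromosome 1.

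The arrays report log2 signals with medians of 4.29 to 4.33, and their small number limits the precision of every value. The 13 ILC2 markers measured had a mean signal of 8.36 to 8.53 in wild type and 8.33 and 8.41 in knockout. Il7r, the IL-7 receptor gene, was at 11.26 to 11.45 on all 5 arrays. Single markers moved apart: 4 were higher and 9 lower in knockout, from -0.84 for Il5 to 1.27 for Icos. Over all genes tested, 57.1% were higher. None of the 13 passed limma's test. The genes for the IL-33 receptor and for amphiregulin had no probe set named for them alone. Il33 itself, at 3.32 to 3.39 in wild type and 3.79 and 3.95 in knockout, lay in the dimmest 25% and was not tested, so it does not check the genotype. Both knockout arrays stood apart from the others. Knockout replicate 1 had the airway transcripts Bpifa1 at 8.52 and Scgb1a1 at 8.81, against at most 3.22 and 5.01 in wild type. On replicate 2 Scgb1a1 was also above wild type, at 5.93, while Bpifa1, at 3.22, was not. Lung epithelium markers had means of 4.41 to 4.60 in wild type, and 5.76 and 4.93 in knockout replicates 1 and 2. Endothelial markers had means of 5.31 to 5.47 in wild type, and 5.75 and 6.04 in those replicates. Knockout replicate 2 had Xist, a transcript of female cells, at 7.91 against 2.35 to 3.10 on the other 4 arrays, although it is labelled male; of 3 Y-linked genes read, Kdm5d was 4.79 there against 5.57 to 5.63 on the others, Eif2s3y 6.14 against 6.82 to 7.62, and Uty 7.17 against 5.83 to 6.96. The differences of the 9 genes are therefore also given with each knockout array left out.

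As a guide to the background of these arrays, 1394 olfactory and vomeronasal receptor genes had mean signals with a median of 2.89 and a 95th percentile of 5.23. Ccl3, Ccl4, Ccl5 and Cxcl2 lay above that percentile. The mean of Ccl1, 5.25, was just above it through knockout replicate 2 at 6.03, with the other arrays at 4.86 to 5.20. Ccl17, Ccl22, Cxcl3 and Xcl1 lay below, at 3.71, 4.24, 4.20 and 4.06, so a transcript may not have been measured there at all. Probe sets differ in response, and the signals do not rank the 9 genes by abundance. In RNA from a whole sorted population, a change in the cells that carry a transcript and a change in the transcript per cell cannot be told apart.

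**Figure D1:**
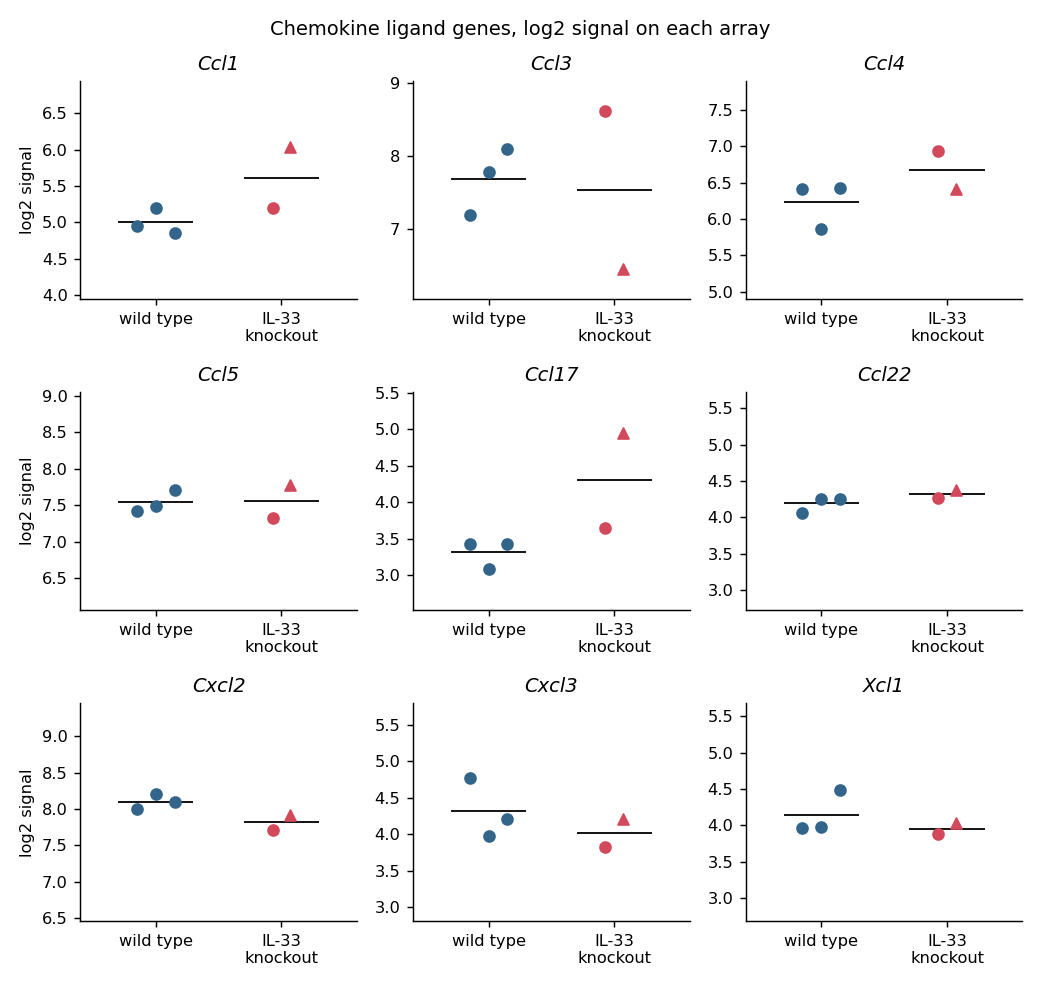
Log2 signal of each chemokine gene (y axis, every panel spanning 3 log2 units) on the 3 wild-type arrays (blue) and on knockout replicate 1 (red circle) and replicate 2 (red triangle), with group means as lines. The groups do not overlap for Ccl17, Ccl22 and Cxcl2, and the knockout arrays of Ccl3 lie on either side of all wild-type arrays.

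Among the CXC ligands, which recruit neutrophils through CXCR2, Cxcl2 had a high and even signal. It read 8.01, 8.20 and 8.09 in wild-type replicates 1 to 3 and 7.71 and 7.92 in knockout replicates 1 and 2. Both knockout arrays were lower than all 3 wild-type arrays, by a gap smaller than the spread within either genotype. Knockout minus wild type was -0.28 (SE 0.10, 95% interval -0.57 to 0.0014), or 0.821 of the wild-type signal, with limma's adjusted p at 0.623. The difference was -0.39 without knockout replicate 2 and -0.18 without replicate 1, the ends of its range over 12 alternative settings. As the groups did not overlap, leaving out an array could not change its sign.

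Cxcl3, its close relative, read 4.77, 3.97 and 4.21 in wild type and 3.83 and 4.21 in knockout. The wild-type arrays spanned 0.80 log2 units and held the value of knockout replicate 2. The mean difference of -0.30 (SE 0.30, 95% interval -1.14 to 0.54) was thus no larger than the spread between replicates, and limma's adjusted p was 0.688. It was -0.072 without wild-type replicate 1 and -0.47 without wild-type replicate 2, and -0.49 without knockout replicate 2 and -0.11 without replicate 1. Of the genes between them, Cxcl1 differed by 0.10 and Cxcl15 by -0.01, both with overlap of the groups.

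The CCR4 ligands, which attract T helper 2 cells and regulatory T cells, were both higher in knockout at dim signals. Ccl17 read 3.43, 3.08 and 3.43 in wild type and 3.65 and 4.95 in knockout. The value of replicate 2 stood 1.64 above the wild-type mean and that of replicate 1 only 0.34. The wild-type mean of 3.31 lay below the filter cut of 3.56, so Ccl17 was tested only through its knockout values. The difference was 0.99 (SE 0.45, 95% interval -0.27 to 2.25), the largest mean difference of the 9, with limma's adjusted p at 0.623. Without knockout replicate 2, the array with the Xist signal, it was 0.34, and without replicate 1 it was 1.64 with an adjusted p of 0.0784.

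Ccl22 read 4.06, 4.26 and 4.26 in wild type and 4.26 and 4.38 in knockout. The lower knockout array exceeded the highest wild-type array only in the third decimal. The difference was 0.13 (SE 0.09, 95% interval -0.13 to 0.38), with limma's adjusted p at 0.623, at a signal within the olfactory background. It was 0.07 without knockout replicate 2, 0.19 without replicate 1 and 0.06 without wild-type replicate 1. Cx3cl1, the gene between Ccl22 and Ccl17, differed by 0.02. Both ligands are also made by dendritic cells, whose 8 measured markers had a mean of 4.58 to 4.71 in wild type and 4.77 and 4.72 in knockout, with 5 higher, 2 lower and 1 equal. Macrophage and monocyte markers, 8 of 11 tested higher, had means of 3.89 to 4.24 in wild type and 4.11 and 4.18 in knockout. The part of these cells in the values of Ccl17 and Ccl22 was not tested.

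Ccl3 had the widest range over the arrays of all 9 genes. It read 7.19, 7.78 and 8.10 in wild type, and 8.62 and 6.45 in knockout. One knockout array was above and the other below all wild-type arrays, so the mean difference of -0.16 (SE 0.77, 95% interval -2.33 to 2.02) describes neither. The 2 knockout arrays lay 2.17 log2 units apart, a gap wider than that of 99.3% of the genes tested, whose median gap was 0.22. The difference was 0.93 without knockout replicate 2 and -1.24 without replicate 1; it was -0.41 without wild-type replicate 1 and 0.048 without wild-type replicate 3. The limma adjusted p was 0.95 on all 5 arrays.

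Ccl4, the neighbour of Ccl3 and another macrophage inflammatory protein, read 6.41, 5.86 and 6.42 in wild type and 6.94 and 6.41 in knockout. Knockout replicate 1 was again the highest of the 5 arrays, while replicate 2 had exactly the value of wild-type replicate 1. The low value of Ccl3 on replicate 2 had thus no counterpart in Ccl4. The difference was 0.45 (SE 0.28, 95% interval -0.33 to 1.22), with limma's adjusted p at 0.623. It was 0.71 without knockout replicate 2, 0.18 without replicate 1 and 0.26 without wild-type replicate 2.

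Ccl5, a ligand of CCR1 and CCR3 that T cells and NK cells also make in quantity, was the member with the smallest difference. It read 7.43, 7.49 and 7.71 in wild type and 7.33 and 7.78 in knockout. The knockout arrays lay just below and just above the wild-type arrays. The difference was 0.02 (SE 0.18, 95% interval -0.49 to 0.52), which leaves ratios between 0.711 and 1.44 possible, and limma's adjusted p was 0.995. It was -0.21 without knockout replicate 2 and 0.24 without replicate 1. Its neighbours Ccl9 and Ccl6 differed by -0.16 and -0.29 with overlap.

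**Figure D2:**
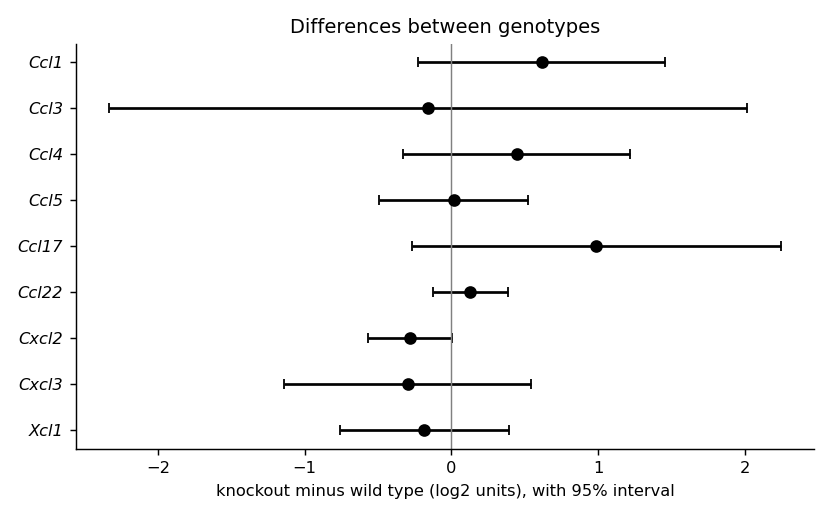
Knockout minus wild type in log2 units (x axis) for each chemokine gene, with points for the limma estimate and bars for its 95% interval. All 9 intervals include 0; that of Cxcl2 ends at 0.0014 and that of Ccl3 runs from -2.33 to 2.02.

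Ccl1, the ligand of CCR8, a receptor carried by type 2 lymphocytes, read 4.94, 5.20 and 4.86 in wild type and 5.20 and 6.03 in knockout. Knockout replicate 1 had exactly the value of wild-type replicate 2, and replicate 2 was 1.03 above the wild-type mean. The difference was 0.62 (SE 0.30, 95% interval -0.22 to 1.46), with limma's adjusted p at 0.623. Without knockout replicate 2 it was 0.20 and without replicate 1 it was 1.03, so 1 array carried most of it.

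Xcl1, the C family ligand through which NK cells and T cells reach cross-presenting dendritic cells, read 3.96, 3.98 and 4.48 in wild type and 3.87 and 4.03 in knockout. Both knockout arrays lay below wild-type replicate 3 and close to the other wild-type arrays. The difference was -0.18 (SE 0.20, 95% interval -0.76 to 0.39), with limma's adjusted p at 0.716. Without wild-type replicate 3 it was -0.014, so that array carried most of it. It was -0.26 without knockout replicate 2 and -0.10 without replicate 1.

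NK cell and ILC1 markers, a possible source of Xcl1, Ccl3, Ccl4 and Ccl5, had means of 3.63 to 3.81 in wild type and 3.79 and 4.21 in knockout, with all 5 tested above 0 in difference. On replicate 2 the granzyme gene Gzma read 6.56, with wild type at 3.27 to 4.01, and Gzmb 4.26, with wild type at 3.03 to 3.39. Klre1, an NK receptor gene, read 3.22 there and at most 2.63 in wild type. Ncr1, the defining NK receptor, lay below the 95th percentile of the olfactory and vomeronasal genes on all 5 arrays. The same held for Gzmb and Klre1, which were too dim to be tested. On replicate 2 the other measured markers, Ncr1, Klrb1c, Eomes, Klrk1, Prf1 and Tbx21, lay within the wild-type range. Klrb1c, also not tested, differed by -0.35. T cell markers had means of 5.11 to 5.15 and of 5.04 and 5.11, with 5 of the 8 tested higher and 3 lower. Without overlap of the groups, Cd8a was higher and Cd3e lower. Their part in the values of these ligands was not tested.

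**Figure D3:**
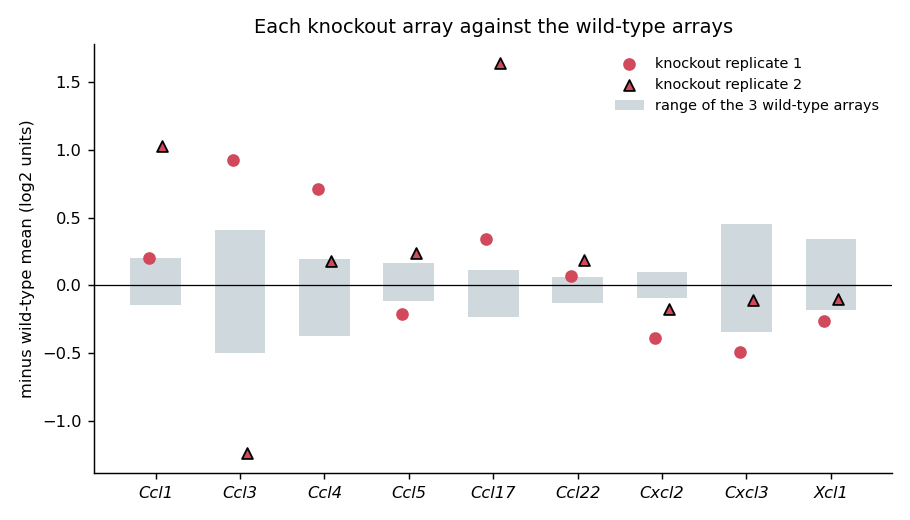
Signal of knockout replicate 1 (circles) and replicate 2 (triangles) minus the wild-type mean in log2 units (y axis), with bars for the range of the 3 wild-type arrays around that mean. Ccl3 and Ccl4 are highest on replicate 1, at 0.93 and 0.71, and Ccl1 and Ccl17 on replicate 2, at 1.03 and 1.64.

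As a group, 5 of the 9 members were above and 4 below 0 in difference, with a median of 0.02, beside 57.1% of all genes above 0 and a median of 0.04. No overlap of the genotypes was found for 2 members upward (11.6% of all genes tested) and 1 downward (6.32%), 33.3% of the 9 against 18% of all genes. With knockout replicate 2 left out the count without overlap was 8 of 9 against 47.8% of genes, and with replicate 1 left out it was 6 of 9 against 54%. The filter on dim genes was kept from all 5 arrays. Ccl17, counted each time, passed it only through knockout replicate 2. Besides Ccl17, Ccl22 and Cxcl2, the members outside the wild-type range were Ccl3, Ccl4, Ccl5, Cxcl3 and Xcl1 on replicate 1, and Ccl1, Ccl3 and Ccl5 on replicate 2. Ccl3 and Ccl5 lay on opposite sides of that range in the 2 arrays. Leaving out an array, 0 of the 9 passed in any of the 5 fits, where 389 genes (2.34%) passed without knockout replicate 2 and 1072 (6.44%) without replicate 1.

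The array profiles of the members most variable across arrays were matched by other genes, by the root mean square difference between values centred on each gene's mean, over 5 arrays and among 2648 genes that span at least 1 log2 unit. Nearest to Ccl3 were Thoc1, Cyp2r1 and Emc4, at 0.13, 0.19 and 0.19 log2 units, and the signal of Thoc1 was 8.03 in knockout replicate 1 and 6.02 in replicate 2, with wild type at 6.83 to 7.36. Nearest to Ccl17 were Fam210a, Afap1l1 and Rasl11a, at 0.09, 0.11 and 0.11. Nearest to Ccl1 were Lurap1l, Atp5mpl and Rcn2, at 0.05, 0.06 and 0.06. These distances were picked as the smallest among 2648 genes over only 5 arrays, so small values say little. Those between members were not picked in this way and do not compare with them. Among the members themselves, Ccl3 and Ccl4 were 0.71 apart by this measure, Ccl17 and Ccl1 0.33, and Ccl17 and Ccl22 0.59. Ccl5 and Ccl22 were 0.14 apart, the smallest of the member pairs, and both spanned less than 0.5 log2 units over all arrays.

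Of the other chemokine ligands, 27 of 29 had a probe set of their own and 23 were tested. None passed with limma, 1 had an unadjusted p below 0.05, 16 were above and 6 below 0, and the median difference was 0.07. The groups did not overlap for 3 of the 23, all upward, against 11.6% of genes in that direction. Cxcl16, a transmembrane ligand of CXCR6, read 5.17, 5.21 and 5.22 in wild type and 5.70 and 5.98 in knockout. Its difference of 0.64 (SE 0.10, 95% interval 0.36 to 0.93) exceeded the spread within both genotypes, and its adjusted p with limma was 0.415. Ccl2, a monocyte attractant, differed by 0.59 (SE 0.25, limma's adjusted p 0.623) and read 4.21 and 4.95 in knockout against 3.95 to 4.01 in wild type; the third, Cxcl14, differed by 0.09.

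In the fit without knockout replicate 1, which rests on 1 knockout array and called 6.44% of all genes, 4 of the 23 passed with limma: Ccl2, Cxcl15, Cxcl16 and Cxcl17, at 0.96, -0.21, 0.79 and 0.53. Cxcl15 had the same value on all 3 wild-type arrays, a spread of 0. Lung epithelium markers had means of 4.41 to 4.60 in wild type and 5.76 and 4.93 in knockout, and endothelial markers 5.31 to 5.47 and 5.75 and 6.04, with 7 of 9 and 5 of 6 tested markers above 0. Their part in the values of these ligands, and in those of the 9 members, was not tested. Neutrophil markers had means of 3.29 to 3.87 in wild type and 4.02 and 3.52 in knockout, with all 5 tested above 0. Mast cell, basophil and eosinophil markers had 3.78 to 3.95 and 4.02 and 4.09, with 2 of 6 tested above and 3 below 0. B cell markers had 4.14 to 4.26 and 4.23 and 4.30, with 3 above and 2 below 0.

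Of 8 receptors of these ligands, all had a probe set of their own and 6 were tested. None passed with limma, 0 had an unadjusted p below 0.05, 5 were above and 1 below 0, and the groups overlapped for all 6. Ccr8, the receptor of CCL1, read 8.86, 9.20 and 8.84 in wild type and 9.70 and 8.90 in knockout, a difference of 0.33 (SE 0.30). Its higher knockout array was replicate 1, whereas that of Ccl1 was replicate 2. Ccr4, the receptor of CCL17 and CCL22, read 5.77, 5.81 and 5.42 in wild type and 5.23 and 6.41 in knockout, a difference of 0.15 (SE 0.41). Here replicate 2 was the highest array, as it was for Ccl17 and Ccl22. Cxcr2 and Xcr1, receptors of the CXC ligands and of XCL1, both differed by 0.29, with SE of 0.25 and 0.30.

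**Figure D4:**
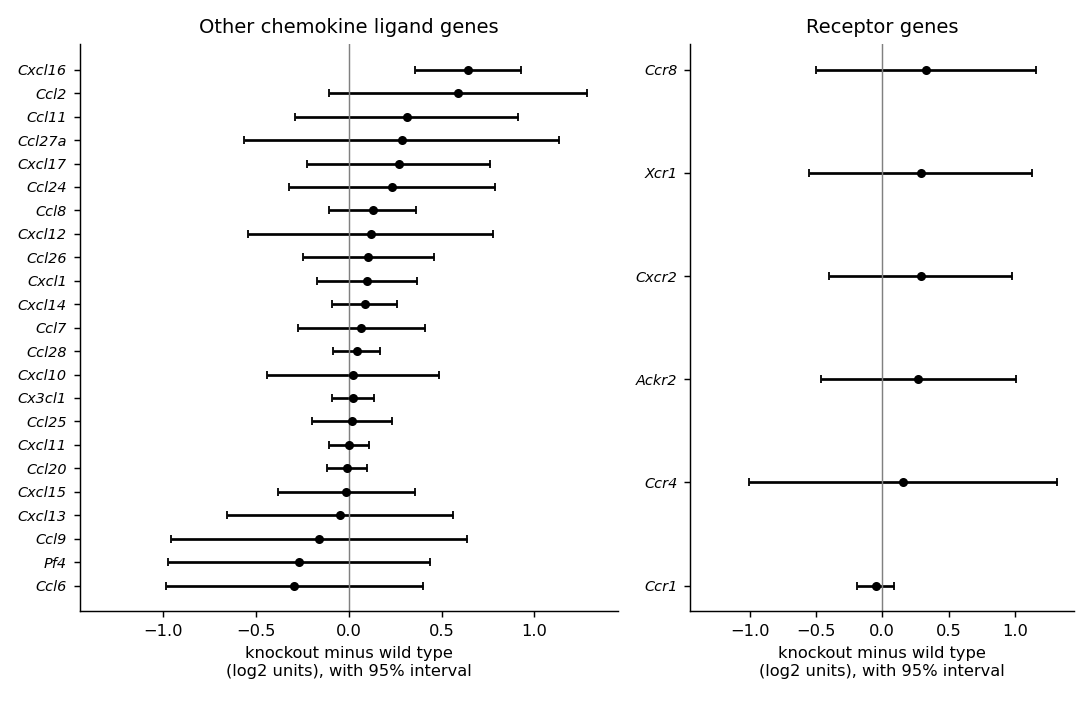
Knockout minus wild type in log2 units (x axis) with 95% intervals for the 23 other chemokine ligand genes tested (left) and the 6 receptor genes tested (right). The interval of Cxcl16, 0.36 to 0.93, is the one that does not include 0 before adjustment.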

How the data were processed

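Total RNA of 5 samples was hybridised to Affymetrix arrays after biotin labelling, per the labels' protocols. The authors deposited log2 signals per probe set, and the submitters' processing notes name Affymetrix Expression Console and RMA; their versions and settings and a genome build are not given in the sources used here, and RMA usually equalises arrays, so a shift of all transcripts together would not show; some values were exactly equal between arrays. Of 41345 probe sets, 23521 had 1 symbol, 1814 several and 16010 none; symbols were updated through gene identifiers, 23328 of which were in the RefSeq table of GRCm38.p6. Each gene was represented by its brightest probe set on average, the dimmest 25% of 22180 genes were left out and 16635 were tested.

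The genotype comparison used lmFit and eBayes of limma 3.58.1 under R 4.3.3 ( Benjamini-Hochberg, threshold 0.05), without a block. An exact permutation over the 10 splits of the arrays has 0.1 as its smallest p and is not reported. Simulated arrays with known changes served to test the fit. Windows were aligned with Biopython 1.88. The members and gene lists were chosen with earlier results of these data known. 1 receptor is not reported here. Named genes were all members, tested ligand and receptor genes without overlap that differed by at least 0.5, and the 3 nearest profiles of the 3 members with the widest range. Cxcl14, Cxcl15, Cxcl17, Cd3e, Cd8a, Eif2s3y, Il7r, Kdm5d, Uty, the receptors and the chromosomal neighbours were named for description after their values were seen. So were Gzma, Gzmb, Klre1, Ncr1, Klrb1c, Eomes, Klrk1, Prf1, Tbx21, Icos and Il5. Alternatives covered the filter, probe sets per gene, quantile normalization, median centring, the variance model, the replicate number as a block and leaving out each array; counts without overlap for single knockout arrays were added after seeing the data.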

Additional observations from a re-analysis of the deposited data

How the results depend on the processing

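Over 12 alternatives, fewer where a stricter filter removed the gene, the direction of Ccl1, Ccl4, Ccl17, Ccl22, Cxcl2, Cxcl3 and Xcl1 was kept, though the size moved with single arrays, and none of the 9 members passed limma's test. For Ccl17, Ccl22 and Cxcl2, whose groups did not overlap, leaving out an array could not change the direction. The filters, the mean of probe sets, of which each member has 1, and the variance model could not change a member's difference. Agreement in those settings was therefore fixed in advance. Ccl3 and Ccl5 changed sign. With arrays left out one at a time, Ccl3 ranged from -1.24 to 0.93 and Ccl5 from -0.21 to 0.24. With the replicate number as a block, Ccl3 differed by 0.048 and Xcl1 by -0.014, the same as without wild-type replicate 3. The block leaves that array out, so its differences are not a separate reading. The block, possible for replicates 1 and 2 only, called 0 genes. The labels do not say that the numbers pair animals. Deviations of same-numbered arrays correlated at -0.05 and 0.14 across genes, and those of wild-type replicate 3 and knockout replicate 1 at 0.19. Deviations of 2 knockout arrays mirror each other, so these values are not separate readings and cannot settle the pairing. Leaving out arrays, the genes called over all ran from 0 to 1072 and the other chemokine ligands called from 0 to 4. With a single knockout array, members without overlap numbered 6 of 9 without replicate 1 and 8 of 9 without replicate 2. Of all genes tested, 54% and 47.8% were without overlap in the same way. Ccl17 was counted both times, although it passed the filter only through knockout replicate 2. In such fits the spread of the lone knockout array was taken from wild type. Median centring and quantile normalization moved the median of all genes by less than 0.1. The number of arrays limits what can be seen. So do signals within the range of the olfactory receptor genes, for Ccl17, Ccl22, Cxcl3 and Xcl1, and for Ccl1 outside knockout replicate 2.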
